A study of Rattus norvegicus with 2 samples.

Results

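The genes described here are 45 genes of NF-kappa B signalling, chemokines and innate cytokines, taken from a fixed list of symbols and read from the probe sets that name a single listed symbol. A probe set with a single member symbol was found for 41 of the 45, out of 14218 genes named this way on the array. Rel, Nfkbie, Ikbkg and Tlr3 had none and were not analysed here. Where a gene had several probe sets, the one with the highest mean of both arrays represents it and the others are given beside it.

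Expression was measured in astrocytes cultured from the hippocampus of Sprague-Dawley rats at embryonic day 18, of normal genotype, with 1 single-colour Affymetrix array per group. The control cells carried a vector that expresses a red fluorescent protein (RFP) behind an internal ribosome entry site (IRES2), and the 5ppase cells carried 5ppase in front of the same IRES2-RFP cassette. The series sets active calcium signalling (control) against its absence (5ppase). 5ppase is not spelled out in the labels, which write 55ppase in 1 field, and commonly stands for an inositol phosphate 5-phosphatase, which degrades inositol trisphosphate, the signal for calcium release inside the cell. The sources used here do not give the promoter of the construct, the share of cells that expressed it or the number of cultures behind each array. With 1 array per group no difference below has a replicate check or a p-value, and fewer cells of a type cannot be told apart from less RNA per cell.

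NF-kappa B is a family of transcription factors that form dimers of the Rel proteins and are held in the cytoplasm by inhibitor proteins of the I-kappa B family. Tumour necrosis factor, interleukin-1 and ligands of Toll-like receptors activate the I-kappa B kinase (IKK), the inhibitor is degraded, and the dimers bind kappa B sites in the promoters of chemokine, cytokine and adhesion genes. The same sites lie in genes of inhibitors such as Nfkbia and Tnfaip3, which end the response. Astrocytes are a source of chemokines in inflamed brain tissue, whereas interleukin-1 and tumour necrosis factor are made largely by microglia.

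Signals ran from 0.1 to 43892 on the control array and from 0.2 to 49734.3 on the 5ppase array, with medians of 107.1 and 109.4. A signal was taken as above the floor over 62.0, the 40th percentile of both arrays pooled, and as bright from 208.4, the 60th percentile. A gene was compared where neither signal was at or below the floor and 1 or both were bright, and ratios are log2 ratios of the 5ppase over the control signal. The cultures gave bright signals of Gfap, the astrocyte intermediate filament (17525 in control and 7407.8 in 5ppase), while the glutamate transporter Slc1a2 was under the floor throughout (24.1 and 25.7) and the water channel Aqp4 was above it in control alone (432.3 and 25.1). The summed signal of 11 astrocyte markers was 48310 in control and 27950.3 in 5ppase, and Gfap was the largest part of the control sum. Of the 8 markers compared 6 had negative ratios and 2 positive ones. The 2 were S100b (3483.2 and 3611, 0.05) and Gja1 (7281.8 and 7655.9, 0.07, with 121.1 and 249.2 at its second probe set). Of 14 microglial and macrophage markers 9 were at or under the floor on both arrays, among them Itgam (9.6 and 5.6), Cx3cr1 (13.0 and 11.0) and Tyrobp (20.1 and 1.5), and 2, Tmem119 and Cd14, were bright enough to be compared. The sum of 10 fibroblast and meningeal markers was 96084.1 and 91217.2. Col1a1 alone gave 32791.8 and 32414.6, while Dcn and Lum were under the floor on both arrays. Negative ratios were found for 6 of the 8 compared fibroblast and meningeal markers and positive ones for 2, with a median of -0.49. At least 1.5-fold lower in 5ppase were 4, and 1 was higher, Thy1 (3311.3 and 6032.5, 0.87). Mgp (1901.7 and 198.7, -3.26) and Igfbp5 (2218 and 530.1, -2.06) were the 2 at least 2-fold lower. The sum of 10 neuron markers was 6694.6 and 13177, with Stmn2 the largest part (3766 and 11065.5). Of the 4 neuron markers compared 2 had positive and 2 negative ratios. The part of such cells in the ratios below was not tested.

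Most of the compared NF-kappa B and chemokine genes lay within 1.5-fold, as did most of all compared genes, and 1 gene stood at least 2-fold apart. Tnfaip3, which encodes the ubiquitin-editing inhibitor A20, gave 1129.3 in control against 464.5 in 5ppase, a log2 ratio of -1.28. Of the 41 genes 23 were compared. None of the 23 was at least 2-fold higher in 5ppase, beside 1.5% of all 8261 compared genes, and 1 was at least 2-fold lower, beside 1.42%. Together this is 1 of 23, beside 2.92% of all compared genes. Within 1.5-fold lay 20 of the 23, or 87%, beside 89.3% of all compared genes. Within 1.2-fold lay 12, or 52.2%, beside 61.3%. The median log2 ratio of the 23 was 0.034, with 13 positive and 10 negative, and that of all compared genes was -0.017, with 52.1% negative. These counts and medians are close to those of all genes. With the signal-dependent trend removed 11 were positive and 12 negative. Of the 23 compared genes 19 were bright on both arrays. The other 4, Relb, Il1rap, Cx3cl1 and Vcam1, were bright on 1 array, so the filter kept each partly through its higher signal.

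**Figure D1:**
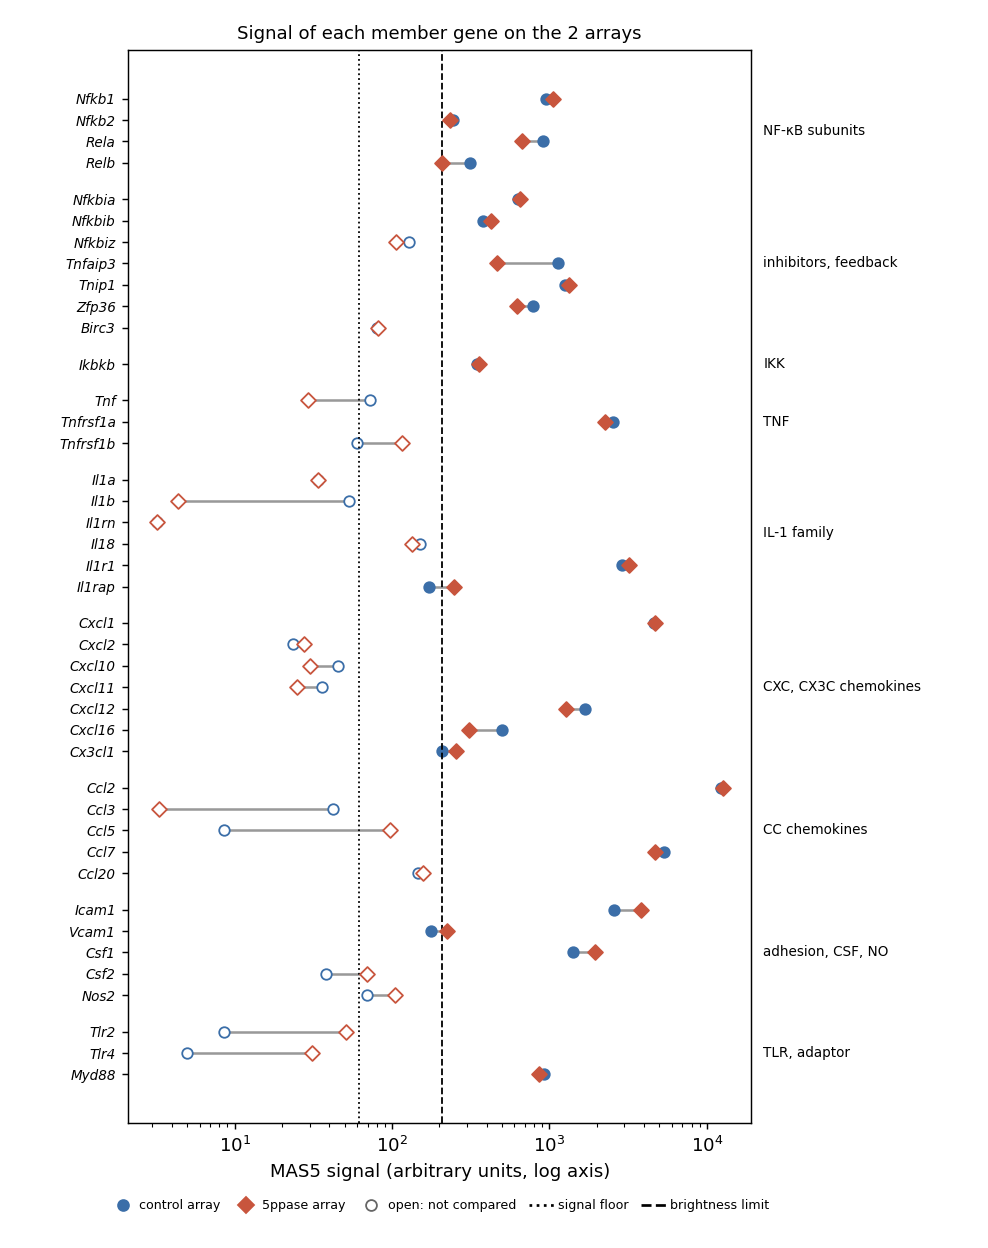
Signal of the 41 genes on the control array (circles) and the 5ppase array (diamonds) on a log axis, 1 row per gene, grouped by role; filled symbols are the 23 compared genes, and vertical lines mark the floor of 62.0 and the brightness limit of 208.4. Tnfaip3 has the widest gap among the filled pairs (1129.3 and 464.5), and the wide gaps of Il1b, Ccl3, Ccl5, Tlr2 and Tlr4 reach signals under the floor.

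The subunits that form the NF-kappa B dimers gave 1 ratio above 0 and 3 below it. Rela, the p65 subunit that carries the main activation domain, had a signal of 912.1 in control against 674.4 in 5ppase (log2 ratio -0.44). Relb, a subunit of the alternative pathway, gave 314.6 and 208.3 (-0.59), which is just over 1.5-fold lower. Nfkb1, the gene of p105 and its product p50, gave 952 and 1060.3 (0.16). Nfkb2, the gene of p100 and p52, gave 244.9 and 234.5 (-0.06). The 2 subunits with a transactivation domain measured here, Rela and Relb, thus had lower signals in 5ppase, and the 2 precursor genes lay within 1.2-fold. Each of the 4 was read by 1 probe set, so none has an internal repeat, and the 4 signs were kept under a common median, quantile normalization and removal of the trend.

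As a scale for such differences, 1881 genes had 2 compared probe sets, and the SD of a single ratio from their disagreement was 0.26 on the log2 scale. This covers disagreement between probe sets on the same arrays. It leaves out labelling and hybridisation effects that both probe sets share, and differences between cultures. The ratios of Rela and Relb lay beyond 1 such SD from 0. So did those of many other genes, as 61.3% of all compared genes lay within 1.2-fold, a width close to this SD.

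Among the inhibitors and feedback genes, A20 stood apart from the rest. Of all 8261 compared genes, 57 had a lower ratio than Tnfaip3. Nfkbia, the gene of I-kappa B alpha and the best known early target of NF-kappa B, had 632.7 in control against 647.6 in 5ppase, a log2 ratio of 0.03. Nfkbib, the gene of I-kappa B beta, gave 380.6 and 423.2 (0.15). Tnip1, which encodes a ubiquitin-binding partner of A20, gave 1254.2 and 1325.3 (0.08). The partner of A20 and both I-kappa B genes therefore lay within 1.2-fold. Zfp36, the gene of tristetraprolin, which binds AU-rich elements and destabilises cytokine messages, gave 787.5 and 625.5 (-0.33). The nuclear I-kappa B protein gene Nfkbiz gave 128.3 and 106.1, with 39.8 and 13.7 at its other probe set, both under the floor. Birc3, the gene of the ubiquitin ligase cIAP2, gave 80.4 and 80.9. Neither Nfkbiz nor Birc3 was bright on any array, so they were not compared.

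The Tnfaip3 ratio ran from -1.31 to -1.24 over the 5 ways of scaling the arrays. It came from a single probe set, so it has no second reading of the message. The summed astrocyte marker signal and most of those markers were lower in 5ppase, as was this gene, while S100b and Gja1 were not lower. The part of the astrocyte markers in the Tnfaip3 ratio was not tested.

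The promoters of A20, I-kappa B alpha and the chemokine Cxcl1 are shown because these 3 genes carry matches to the kappa B consensus near their start, and Tnfaip3 (-1.28) differed from the level Nfkbia and Cxcl1 (0.03 and 0.01). Each window holds 300 bases, 250 before the annotated start and 50 after it, from RefSeq on rat build GRCr8, written along the gene 5′ to 3′, and capitals mark the kappa B matches. The windows lie at chr1:15543930-15544229 (minus strand), chr6:78597023-78597322 (minus strand) and chr14:17479272-17479571 (minus strand).
Tnfaip3: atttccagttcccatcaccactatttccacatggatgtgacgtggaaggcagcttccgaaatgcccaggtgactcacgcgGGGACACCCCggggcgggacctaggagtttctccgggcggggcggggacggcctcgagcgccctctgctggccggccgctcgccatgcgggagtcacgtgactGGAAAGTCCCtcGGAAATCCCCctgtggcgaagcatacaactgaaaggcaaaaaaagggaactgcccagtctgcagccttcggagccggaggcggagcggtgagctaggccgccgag
Nfkbia: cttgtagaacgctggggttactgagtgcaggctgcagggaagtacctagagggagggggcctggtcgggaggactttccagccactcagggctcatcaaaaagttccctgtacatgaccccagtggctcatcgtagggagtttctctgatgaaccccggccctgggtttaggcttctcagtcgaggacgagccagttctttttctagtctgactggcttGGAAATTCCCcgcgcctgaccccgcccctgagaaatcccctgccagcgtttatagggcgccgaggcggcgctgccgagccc
Cxcl1: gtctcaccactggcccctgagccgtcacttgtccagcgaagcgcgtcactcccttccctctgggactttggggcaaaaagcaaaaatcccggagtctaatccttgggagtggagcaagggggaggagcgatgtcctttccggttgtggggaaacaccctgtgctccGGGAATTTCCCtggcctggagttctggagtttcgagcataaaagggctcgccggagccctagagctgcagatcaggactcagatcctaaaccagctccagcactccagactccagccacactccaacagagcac
The A20 promoter holds 3 separate matches, which begin 170, 67 and 55 bases before the start. The other 2 promoters hold 1 stretch each, beginning 31 bases before the start for Nfkbia and 84 for Cxcl1.

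Across the list, 37 genes had a promoter in the RefSeq table, and 18 of these windows, or 48.6%, held a kappa B match on either strand, beside 4.18% of all 33469 windows. This is a description of the letters in the windows, as the genes were listed for their link to this pathway. The AP-1 motif TGANTCA was in 10 of the 37 (27%, beside 7.33% of all windows), and the cyclic AMP response element TGACGTCA was in 0 of them, beside 1.83%. In Cxcl10 and Cxcl11, neighbouring genes of interferon-inducible chemokines, the matched letters were the same, and so were those of Nfkb1 and Nfkbiz. The matched stretches of genes with different signals are set out here, overlapping matches joined into 1 run.
Nfkb1: GGGAATTTCC
Nfkbiz: GGGAATTTCC
Nfkb2: GGGACTTTCC
Tnip1: GGGGAATTCCCC
Vcam1: GGGATTTCCC
Cxcl2: GGGGATTTCCC
Cxcl10: GGGAAATTCC
Cxcl11: GGGAAATTCC
Tlr2: GGGGAATTCCC
The 9 compared genes with a match had a median log2 ratio of 0.08, from -1.28 for Tnfaip3 to 0.54 for Il1rap, with 7 above 0. The 10 compared genes whose window held no match had a median of -0.17, from -0.69 for Cxcl16 to 0.57 for Icam1, with 3 above 0. The 2 ranges overlap. The compared genes Relb, Ikbkb, Ccl2 and Csf1 had no promoter window here and are in neither group. Cxcl2, Cxcl10, Cxcl11 and Tlr2 hold a match and lay under the floor in both groups.

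**Figure D2:**
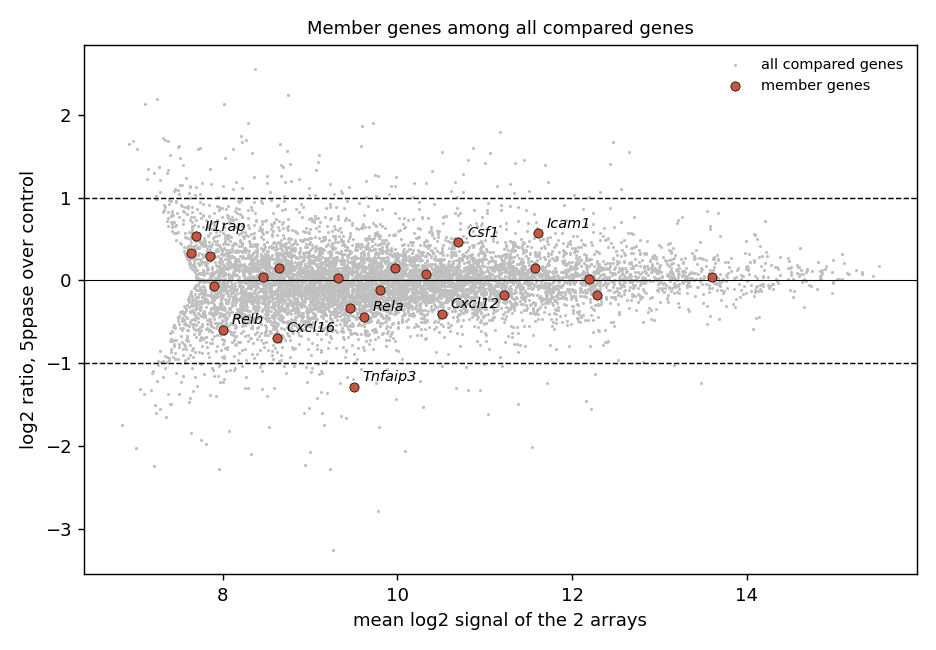
Log2 ratio of 5ppase over control against the mean log2 signal for all 8261 compared genes (grey) and the 23 compared genes of the list (red), with dashed lines at 2-fold and names on those further from 0. Only Tnfaip3 (-1.28) lies outside the dashed lines among the red points, and Icam1 (0.57) is the highest.

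The kinase step and the receptors that feed it differed little. Ikbkb, the catalytic IKK beta subunit, had 345.9 in control against 357.2 in 5ppase (0.05), and its other probe set lay under the floor (39.3 and 23.8). Tnfrsf1a, the receptor through which tumour necrosis factor activates IKK in most cells, gave 2536.4 and 2254.9 (-0.17). Il1r1, the signalling receptor of interleukin-1, gave 2892.8 and 3219 (0.15), and its other probe sets gave 94.0 and 95.4 and 61.0 and 73.6. These 3 genes lay within 1.2-fold.

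The interleukin-1 receptor accessory protein and the shared adaptor went apart in direction. Il1rap, the co-receptor that completes the signalling complex, gave 171.6 and 249.2 (0.54), with 40.7 and 5.2 at its other probe set, both under the floor. Myd88, the adaptor shared by interleukin-1 and Toll-like receptors, gave 926.6 and 855.4 (-0.12). Tnfrsf1b, the second receptor of tumour necrosis factor, was above the floor in 5ppase alone (59.5 and 115.6) and bright on neither array. Of the Toll-like receptors, Tlr2 (8.6 and 50.8) and Tlr4 (5.0 and 30.9) were at or under the floor on both arrays. Receptors and adaptor for interleukin-1 and tumour necrosis factor were thus measurable in these cultures, and Tlr2 and Tlr4 were not.

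The cytokines that start the response were at the edge of measurement. Il1b, the gene of interleukin-1 beta, gave 53.5 in control and 4.4 in 5ppase, both under the floor of 62.0, and is given no ratio. Il1a, the gene of interleukin-1 alpha, gave 33.9 and 33.7 at 1 probe set and 28.8 and 2.7 at the other. Il1rn, the receptor antagonist, gave 3.2 on both arrays. No interleukin-1 ligand or antagonist gene was above the floor. Tnf, the gene of tumour necrosis factor, was just above the floor in control (73.0) and under it in 5ppase (29.1), and its second probe set was under it on both (39.8 and 16.8). Il18, an interleukin-1 family cytokine released by inflammasome cleavage, was above the floor on both arrays but bright on neither (150.9 and 133.1). Csf2, the gene of GM-CSF, gave 38.2 and 69.1 at 1 probe set and 2.6 and 31.0 at the other.

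In all, 9 of the 41 genes were at or under the floor on both arrays, or 22%, beside 23.8% of all genes. They were Il1a, Il1b, Il1rn, Cxcl2, Cxcl10, Cxcl11, Ccl3, Tlr2 and Tlr4. Another 4, namely Tnf, Tnfrsf1b, Ccl5 and Csf2, were above it on 1 array, and 5 were above it on both but bright on neither. Signals this low have no order here, so the wide gaps of Il1b, Ccl3 and Ccl5 are not read as differences. The summed signal of the 14 microglial and macrophage markers, cells that make much of this interleukin-1 and tumour necrosis factor, was 2781 in control and 4466.5 in 5ppase, and most of each sum came from Cd14 and Tmem119; the part of these cells in the cytokine signals was not tested.

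The CC chemokines fell into genes with bright signals on both arrays and genes near the floor. Ccl2, which recruits monocytes through the receptor Ccr2, had 12250.4 in control against 12603.6 in 5ppase (0.04). Ccl7, its direct neighbour among protein-coding genes on rat chromosome 10 and a ligand of the same receptor, gave 5312.2 and 4715.9 (-0.17). The ratio of Ccl2 was -0.02 with the trend removed and below 0 also under quantile normalization, so it has no settled direction. Ccl20, the ligand of Ccr6, gave 145.7 and 157.9 and was bright on neither array. Ccl3, a macrophage chemokine, was under the floor (42.4 and 3.3), and Ccl5, which attracts T cells, gave 8.6 and 97.6. The monocyte chemokine genes Ccl2 and Ccl7 thus lay within 1.2-fold, while Ccl3 and Ccl5, which lie near each other on the same chromosome with 2 genes between them, were not bright on either array.

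Among the CXC and CX3C chemokines, Cxcl12 and Cxcl16 had lower signals in 5ppase, Cx3cl1 a higher one, and Cxcl1 was level. Cxcl1, which attracts neutrophils through Cxcr2, gave 4647.6 and 4694.6 (log2 ratio 0.01, but -0.02 with a common median and -0.01 with the trend removed). Its neighbour Cxcl2 lay under the floor in both groups (23.6 and 27.4). The 2 genes lie side by side on chromosome 14 and their windows both hold a kappa B match; 1 was bright and the other not measurable. Cxcl12, the ligand of Cxcr4 that guides migrating precursors, gave 1673.6 and 1266.1 (-0.40). Its other 2 probe sets gave 391.5 and 302.8 (-0.37) and 120.2 and 112.4 (-0.10), so all 3 had lower signals in 5ppase. Cxcl16, a membrane-bound chemokine and scavenger receptor, gave 501.4 and 310.5 (-0.69), 1.61-fold lower in 5ppase and second to Tnfaip3 among the lower ratios. Cx3cl1, the membrane-bound ligand of the microglial receptor Cx3cr1, gave 208 and 255.6 (0.30). The interferon-inducible chemokine genes Cxcl10 (45.2 and 30.3) and Cxcl11 (35.9 and 24.9) were under the floor on both arrays.

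At 1.5-fold the list had 3 genes lower in 5ppase, Tnfaip3, Cxcl16 and Relb, and 0 higher, beside 5.46% of all compared genes lower and 5.25% higher. Each of the 3 was read by a single probe set. The 0 rests on the brightest probe set of Csf1, whose ratio of 0.46 is under 1.5-fold. With its second brightest probe set (0.91) or the mean of its compared ones (0.70), Csf1 was over 1.5-fold higher in 5ppase.

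The adhesion molecules and the macrophage growth factor Csf1 had higher signals in 5ppase, by less than 1.5-fold at the probe sets that represent them. Icam1, the ligand of leukocyte integrins, had 2556.9 in control against 3799.1 in 5ppase (0.57), and 459 of the 8261 compared genes had a higher ratio. Vcam1, the ligand of the integrin VLA-4, gave 177.5 and 223.6 (0.33). Csf1, the growth factor of microglia and macrophages, gave 1411 and 1942.1 at its brightest probe set (0.46). The next 2 probe sets of Csf1 gave 989.9 and 1858.4 (0.91) and 676.4 and 1111.6 (0.72). The last one gave 202.5 and 90.2 (-1.17) and was bright on neither array. Of the 4 Csf1 probe sets 3 were thus higher in 5ppase and the dimmest was lower. The transcript forms they read were not identified here. Nos2, the inducible nitric oxide synthase, gave 69.5 and 105.2 and was bright on neither array. The summed signal of 8 pericyte and smooth muscle markers was 38458.7 in control and 53447 in 5ppase. Most of each sum came from Tagln (21878.6 and 28753.9) and Acta2 (14267.8 and 21069.8). Of the 5 compared 4 had positive ratios. Pdgfrb was lower (1097 and 992), but higher at its second probe set (220.5 and 363.4). The sum of 9 endothelial markers was 276.9 and 467.1. Of these 7, among them Pecam1 (8.7 and 22.5), were under the floor on both arrays and 0 were compared, so this sum is not read as a difference. The part of these cell types in the ratios above was not tested.

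**Figure D3:**
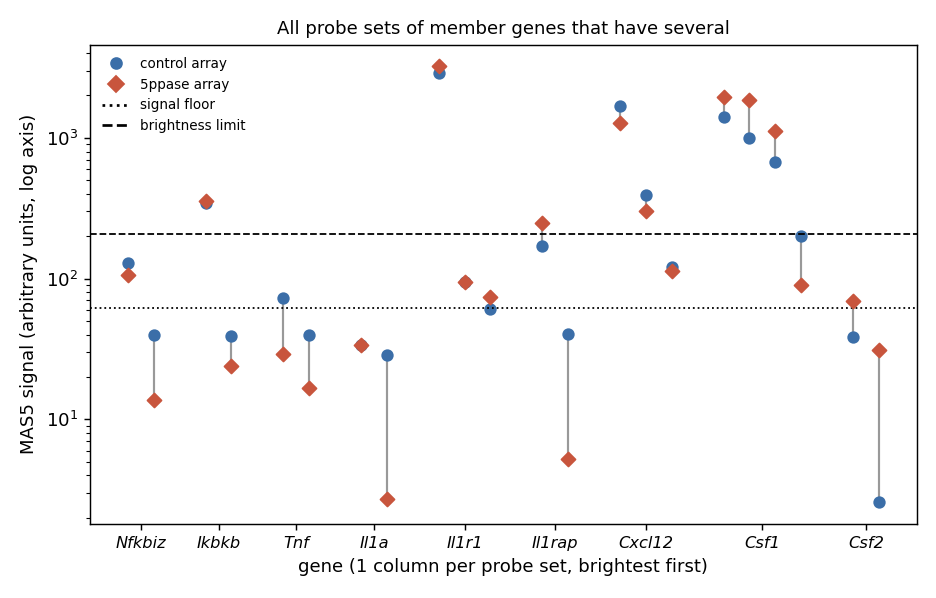
Signals of every probe set of the 9 genes with several, control (circles) and 5ppase (diamonds), on a log axis with the floor and the brightness limit. The 3 probe sets of Cxcl12 are all lower in 5ppase, 3 of the 4 of Csf1 are higher, and most of the remaining second probe sets lie under the floor.

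Other genes of the pathway were read from 7 further lists with 175 distinct genes, of which 146 had a probe set and 70 were compared. Of the 70, 35 had a positive and 35 a negative ratio, with a median of -0.007. With a common median the split was 30 and 40. At least 2-fold higher in 5ppase were 3 of the 70 and at least 2-fold lower 0, beside 1.5% and 1.42% of all compared genes.

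The 3 were Ptgs2, Il6 and Cxcl14. Ptgs2, the inducible cyclooxygenase, had 339 in control against 852.1 in 5ppase (1.33). Il6, the gene of interleukin-6, gave 1193.6 and 2498.8 (1.07). The promoter window of Il6 held 1 kappa B match and 1 cyclic AMP response element, and that of Ptgs2 held no exact match to any of the 3 motifs. Both are textbook NF-kappa B targets, and their signals stood in the opposite order to that of Tnfaip3. Of the 20 compared genes on the list of other NF-kappa B targets, 9 had positive and 11 negative ratios, with a median of -0.02. Gadd45b, a stress-induced growth arrest gene (3701.4 and 3703), and Sod2, the mitochondrial superoxide dismutase (1486.3 and 1590.4), were chosen after their values were seen and lay within 1.2-fold. Junb, an AP-1 subunit (3447.9 and 2027, -0.77), and Ier2, an immediate early gene (3543 and 2060, -0.78), were also chosen after their values were seen. They were the 2 of this list at least 1.5-fold lower, beside 5.46% of all compared genes. Ptgs2 and Il6 were the 2 at least 1.5-fold higher, beside 5.25%. Targets of the pathway thus had ratios in both directions.

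Cxcl14, a chemokine of epithelia and brain, gave 125 and 293.7 (1.23), and its second probe set was under the floor (49.0 and 61.8). It was bright in 5ppase alone, so it was compared through its higher signal. The same holds for Cxcl6, a neutrophil chemokine named after its values were seen, which gave 132.1 and 209.3 (0.66). These 2 were the only compared genes of the list of other chemokines. Both were at least 1.5-fold higher in 5ppase, beside 5.25% of all compared genes. With a common median only Cxcl14 was bright enough. Of 20 other chemokine genes with a probe set 14 were at or under the floor on both arrays, beside 23.8% of all genes. The chemokine receptors were also mostly dim, with 11 of 17 under the floor on both arrays, beside the same 23.8%. The scavenging receptors Ackr4 (1121.1 and 1041.6, -0.11) and Ackr3 (486.2 and 617.9, 0.35) were the 2 brightest of those compared. None of the 4 compared receptors was 1.5-fold apart, beside 10.7% of all compared genes.

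Signal transducers around IKK had ratios evenly split between the 2 directions. Of 23 compared adaptors and kinases 11 had positive and 12 negative ratios, with a median of -0.02. At least 2-fold apart were 0, beside 2.92% of all compared genes. The death domain adaptor Fadd (135.8 and 253.4, 0.90) and Rnf31, the catalytic subunit of the linear ubiquitin ligase (467.6 and 279.2, -0.74), picked with their values in view, were the 2 at least 1.5-fold apart, beside 10.7% of all compared genes. Fadd was bright in 5ppase alone, so it was compared through its higher signal. Irak1, a kinase recruited by Myd88, gave 1852.2 and 1520.8 (-0.28), and its second probe set had a ratio of -0.61. Tab2, which links the kinase TAK1 to ubiquitin chains, gave 1649.9 and 1548.9 (-0.09). Of 9 compared inhibitors and deubiquitinases 7 had negative ratios, beside 52.1% of all compared genes. Their median was -0.21 and 0 were at 1.5-fold, beside 10.7% of all compared genes either way. Among them, Tax1bp1, an adaptor of A20, gave 10709.1 and 8576.4 (-0.32), and Zfp36l1, a relative of tristetraprolin, gave 9235.4 and 6636.9 (-0.48).

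Of 6 compared genes of pattern recognition and the interleukin-1 family 5 had positive ratios and 1 a negative one, beside 52.1% negative among all compared genes. Their median was 0.35 and 0 were at 1.5-fold, beside 10.7% of all compared genes either way. Il1rl1, the receptor of interleukin-33, gave 1348.5 and 1911.1 (0.50), and the inflammatory caspase gene Casp4 gave 2012.9 and 1753.7 (-0.20). Of the TNF superfamily 6 genes were compared, 4 with positive and 2 with negative ratios, and the median of 0.03 turned negative with a common median. The death receptor gene Tnfrsf21 (228 and 390.2, 0.78) was named after its values were seen. It was the only one of the 6 at 1.5-fold, beside 10.7% of all compared genes either way. Tnfrsf12a, the receptor of TWEAK, gave 3731.8 and 3841.4 (0.04), and Tnfrsf11b, the gene of osteoprotegerin, gave 2845.2 and 2377.1 (-0.26).

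**Figure D4:**
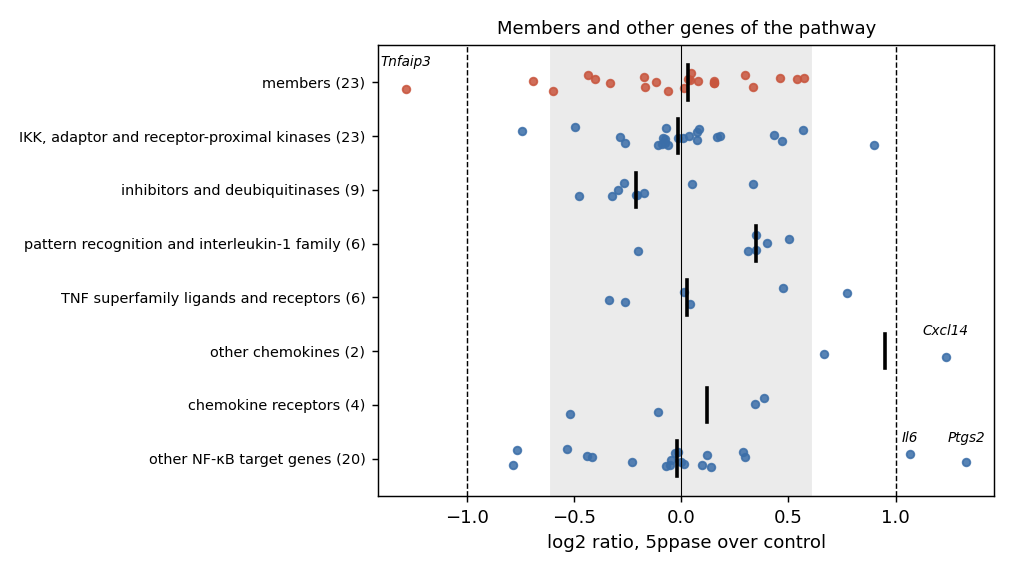
Log2 ratio of 5ppase over control for the compared genes of the list (red) and of the other pathway lists (blue), 1 point per gene with the number of genes in parentheses; black bars are medians, dashed lines mark 2-fold, and the grey band holds the 5th to 95th percentile of all compared genes (-0.61 to 0.60). Tnfaip3 lies below the lower dashed line, and Cxcl14, Il6 and Ptgs2 lie above the upper one.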

How the data were processed

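Expression values came from 1 control and 1 5ppase array, grouped by the sample titles, with 31099 probe sets each. The authors deposited linear intensities. Per the submitters' processing notes MAS5 produced them, and the sources used here give neither version nor settings. Per the labels' protocols, 6 µg of total RNA extracted with RNeasy was labelled as biotinylated cRNA. Scaling of both arrays to a common mean with 2% trimmed at each end moved no value beyond rounding (trimmed mean 500.2 on each). Unused sample columns numbered 0.

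Gene names came from the platform's annotation, which can be old: 20832 probe sets carried 1 symbol, 436 several and 9831 were not listed in it. Probe sets with several symbols were not used, which leaves out 1 of Nos2. Signals were raised to the floor before log2. This changes no ratio of a compared gene, as both of its signals are above the floor, and genes with a signal at or under it are given no ratio in the main setting. Low signals are judged against this percentile of the data, not against detection calls. Precision is limited by the number of arrays. The members and gene lists were chosen with earlier results of these data known. All 45 members are named; of the other pathway lists, compared genes at least 2-fold apart and genes bright on 1 array and no higher than the floor elsewhere are named, or else the 2 brightest compared.

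Promoter windows and gene order came from RefSeq tables (GRCr8). No genome build is given for the values. The kappa B consensus was searched as 10 bases on both strands, without mismatch. The ratio and call steps were tested on simulated data. Alternatives were other scalings, floors, probe set rules and fold thresholds. Python 3.11.15, pandas 2.3.3 and statsmodels 0.14.6 were used.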

Additional observations from a re-analysis of the deposited data

How the results depend on the processing

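The count of 1 gene at least 2-fold lower and 0 higher in 5ppase was the same with no rescaling, quantile normalization, a common median, a loess trend removed (span 0.3), a floor at the 25th percentile or at the 60th (with the 75th as brightness limit), probe sets averaged per gene, and no _s_at or _x_at probe sets. With a pseudocount (6.40, the 10th percentile) and no floor or filter, 3 genes were higher (Ccl5, Tlr2 and Tlr4) and 4 lower (Tnfaip3, Tnf, Il1b and Ccl3) out of 41, beside 14.7% of all genes 2-fold apart in that setting. Of these 7 only Tnfaip3 was bright on any array. With second brightest probe sets, which 2 of the compared genes have (Cxcl12 and Csf1), the lower count was 0. A 1.5-fold threshold gave 3 lower and a 3-fold threshold 0. The median log2 ratio of the members stayed between -0.011 and 0.034, except with second probe sets (0.27, 2 genes). For single compared genes, 200 values under other settings stayed within the probe set SD of 0.26 and 1 did not, Csf1 with its second probe set (0.91). Most of the 200 could hardly differ. The deposited values, the floors and the probe set rules leave the ratio of a gene with 1 compared probe set as it was. Only the second probe sets give another reading, for 2 genes, so the 200 are no measure of how repeatable a ratio is. Cxcl1 and Ccl2 were the only compared genes to change sign in any setting. No paired analysis was possible because each group has 1 array. Signals near the floor, not read depth, limit what can be said of the cytokine genes.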
